A study of Mus musculus with 16 samples.

Results

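Transcript levels of 10 genes listed under pyrimidine synthesis and salvage were compared between lung tumors with and without Max. The 10 genes were taken by symbol from the 23284 symbols counted in each tumor. Listed were Cad, Dhodh, Umps, Ctps and Ctps2 of de novo synthesis, Uck1 and Uck2 of salvage, and Tyms and Dtymk of thymidylate supply. Uprt, related to microbial salvage enzymes, was listed beside Uck1 and Uck2. All 10 were present and all 10 passed the filter on low counts. RNA from 16 mouse lung tumors had been sequenced, 9 labelled Max -/- (Max null below) and 7 labelled wild type for Max, all on a mixed 129/SvJ and C57BL/6 background. All 16 carry the RP name in their titles, whose letters the labels do not spell out, and in all of them genes were deleted by Cre under the CMV promoter, delivered by adenovirus into the trachea. That promoter is not restricted to a cell type. The age of the mice is not given in the sources used here, and the labels do not say whether each tumor is from its own mouse. The p-values therefore cover only the variation among these 16 tumors.

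Cells obtain pyrimidines by building the ring from glutamine, bicarbonate and aspartate, or by recovering nucleosides from RNA and DNA breakdown. De novo synthesis runs through CAD, a single protein with the first enzyme activities of the pathway, then DHODH in mitochondria and UMPS, which makes UMP. The CTP synthases turn UTP into CTP. Dividing cells also need dTMP, made by thymidylate synthase and passed to dTTP by thymidylate kinase. Cad is a long-studied target of MYC, which binds the E-box CACGTG as a dimer with MAX.

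The stretches before the transcription start are shown for the 3 genes whose level differed between the groups (Cad, Uprt and Dtymk) and for Tyms, because MAX dimers bind E-boxes. They come from RefSeq (GRCm38.p6), a later build than the mm9 named in the submitters' processing notes, and end at the base before the start site. The Cad stretch covers the plus strand at chr5:31054624-31054779 and is shorter because exons of the gene upstream were left out. The Uprt stretch covers the plus strand at chrX:104482553-104482802. The Dtymk and Tyms stretches lie on the minus strand at chr1:93801935-93802184 and chr5:30073626-30073875. Capitals mark the E-box CACGTG, the GC box GGGCGG (read CCGCCC on the other strand) and GCGGGA (read TCCCGC on the other strand), a core bound by E2F6-type factors, which in the Cad stretch overlaps a GC box.
Cad: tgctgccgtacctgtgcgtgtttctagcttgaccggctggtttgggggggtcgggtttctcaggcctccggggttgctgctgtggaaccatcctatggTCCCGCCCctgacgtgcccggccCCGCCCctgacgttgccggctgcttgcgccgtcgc
Uprt: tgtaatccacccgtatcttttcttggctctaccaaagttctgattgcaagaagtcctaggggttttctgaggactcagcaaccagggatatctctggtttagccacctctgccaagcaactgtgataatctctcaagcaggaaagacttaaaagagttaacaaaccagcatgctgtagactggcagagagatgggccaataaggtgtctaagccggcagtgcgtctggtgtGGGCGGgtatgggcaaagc
Dtymk: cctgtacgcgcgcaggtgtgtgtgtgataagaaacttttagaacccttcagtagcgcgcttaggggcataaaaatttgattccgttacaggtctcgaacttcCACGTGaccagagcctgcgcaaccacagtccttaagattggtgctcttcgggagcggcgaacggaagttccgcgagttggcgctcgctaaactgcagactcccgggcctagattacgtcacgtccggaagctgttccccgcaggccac
Tyms: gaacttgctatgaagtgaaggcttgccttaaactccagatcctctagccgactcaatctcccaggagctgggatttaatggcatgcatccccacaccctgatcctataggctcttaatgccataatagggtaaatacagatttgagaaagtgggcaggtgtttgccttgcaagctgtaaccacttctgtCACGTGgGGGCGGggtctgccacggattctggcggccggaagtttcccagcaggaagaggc

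RefSeq windows of 250 bases before to 50 bases after the start were matched for 9 of the 10 genes (13 windows, since some genes have several starts). The E-box was found in the windows of Dtymk, 148 bases before the start, and Tyms, 61 bases before it. Those of Cad and Uprt held no CACGTG. Bases beyond the windows were not searched, so a site further upstream or further into either gene would be missed. Of all 32851 windows, 7.15% held it. The GC box was found for 6 of the 9 genes and in 35.7% of all windows, and GCGGGA for 5 of the 9 and in 20% of all windows. The 8-letter E2F sites TTTCCCGC, TTTCGCGC, TTTGCCGC and TTTGGCGC, searched on both strands, were found for 0 of the 9 and in 2.26% of all windows. A gene was counted when any of its windows matched, so the counts of genes and the shares of single windows are in unlike units. These matches describe the letters of the windows, and binding was not measured.

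Levels are given as CPM, counts per M (mega) reads in genes after scaling with TMM factors, over 8.66 to 15.1 M such reads per tumor. Differences are on the log2 scale with their SE, positive where the Max null level was higher, and a gene was called when its p from edgeR's quasi-likelihood test, adjusted over all 14825 genes tested (Benjamini-Hochberg), was below 0.05. Of the 10 genes, 2 rose in Max null tumors (Uprt and Cad), 1 fell (Dtymk) and 7 did not pass. Over all genes 16% were called, 7.40% higher and 8.64% lower. The median log2 difference of the 10 genes was 0.06, and that of all genes tested -0.03.

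**Figure D1:**
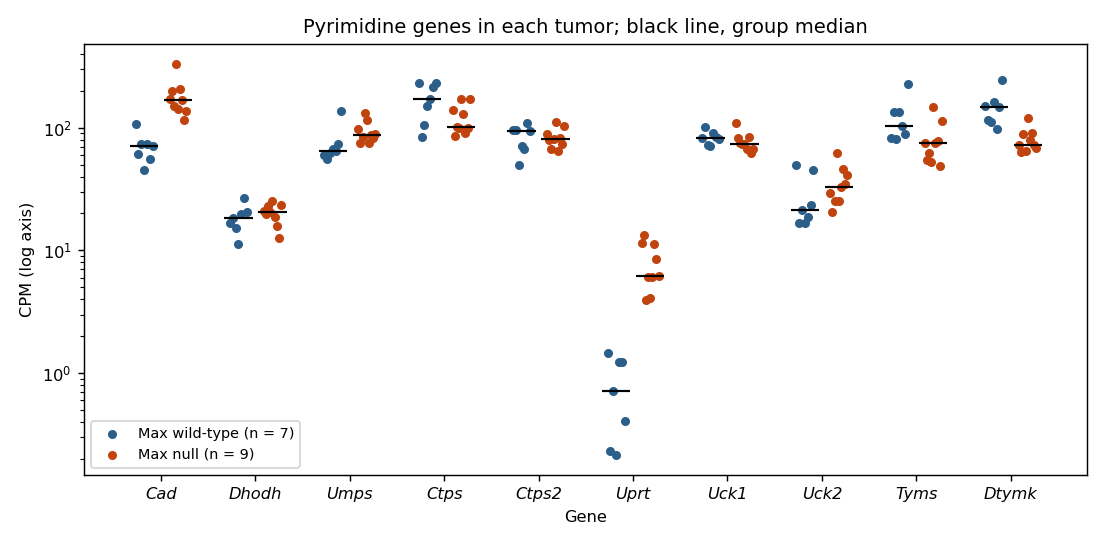
CPM of the 10 pyrimidine genes in each of 9 Max null and 7 Max wild-type tumors on a log axis; each point is a tumor and each black line a group median. All Max null tumors lie above all Max wild-type tumors for Uprt and Cad, while the groups overlap for the other 8 genes.

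Libraries of the 2 groups also differed in how their reads aligned, and the cause of this was not tested. Multiply aligned reads, those with several equally good places in the genome, ranged from 9.17% to 11.8% of a Max null library and from 12.3% to 22.2% of a Max wild-type library, with no overlap (exact permutation test over 11440 splits, two-sided, p = 8.74e-05, the smallest possible with these group sizes, and 0.000175 after adjustment over 2 properties). It was highest in wild-type tumors 2, 4 and 7, so results are also given without these 3. Transcripts of genes called higher were longer (median 4861 bases) than those of genes called lower (median 2050 bases), so results are also given after removing each tumor's trend with transcript length and GC content. Of the 17 proliferation genes of a fixed list 0 were called, with 3 at an unadjusted p below 0.05 in edgeR and 0 called by DESeq2 or limma-voom. Their median log2 difference was -0.25, against -0.03 for all genes tested, with 13 below 0 and 4 above. Markers of neuroendocrine cells were present in every tumor, with summed levels of 3191 to 6368 CPM in Max null and 3537 to 26217 CPM in Max wild-type tumors. In bulk tumors, fewer cells of a type and less RNA per cell cannot be told apart.

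Cad encodes the protein that starts de novo synthesis and carries its main control point. It measured 115 CPM in the lowest, 169.6 in the median and 333 in the highest Max null tumor. The Max wild-type tumors gave 45.4, 70.7 and 107 CPM. Every Max null tumor was above every Max wild-type tumor, as for Uprt below. Over all genes tested the groups did not overlap for 1.56%, with Max null higher for 0.917% and lower for 0.648%. The log2 difference was 1.38 ± 0.22 (SE, n = 9 and 7, edgeR adjusted p = 0.00234), a fitted level 2.60-fold higher. Null tumor 4 stood apart at the top, and the difference stayed between 1.22 and 1.52 when each tumor was left out in turn. Cad was also called without wild-type tumors 2, 4 and 7 (1.22 ± 0.27, edgeR adjusted p = 0.0425), where 1.68% of genes were. Its transcript, at 7137 bases, is the longest of the 10, and with the length and GC trend removed the difference was 0.89 ± 0.18 (edgeR adjusted p = 0.00803), a smaller value by over 1.5 times, in a fit that called 10.7% of genes. With the share of multiply aligned reads as a covariate it was 1.17 ± 0.31 and did not pass (edgeR adjusted p = 0.146). That fit called 0.0675% of genes, and the share cannot be told apart from the genotype.

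Dhodh, the mitochondrial dehydrogenase of the pathway and the target of leflunomide, was the lowest of the de novo genes. Its Max null tumors ran from 12.6 CPM through a median of 20.6 to 25.4 CPM. Its Max wild-type tumors ran from 11.4 through 18.2 to 26.9 CPM. The groups covered nearly the same range. The log2 difference was 0.12 ± 0.20 (edgeR adjusted p = 0.711), and 2 SE either side spans -0.27 to 0.51.

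Umps encodes the bifunctional enzyme that completes UMP. It measured 74.7 CPM in the lowest, 87.9 in the median and 132 in the highest Max null tumor. The same values for Max wild-type tumors were 55.4, 64.9 and 137 CPM. Of the 7 wild-type tumors 6 lay below every Max null tumor, and the other, wild-type tumor 7, lay above them all. The difference was 0.32 ± 0.19 and did not pass (edgeR adjusted p = 0.249). Without wild-type tumor 7 it was 0.53 ± 0.14 and passed (edgeR adjusted p = 0.0268). The TMM factor of this tumor was 0.748, against 0.936 to 1.07 in the others, which raises all its CPM. Its place above every Max null tumor therefore holds for scaled levels only. Wild-type tumor 7 also had the highest share of multiply aligned reads, whose part in this value was not tested.

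Cad and Umps were compared within each tumor, which does not depend on library scaling. The log2 ratio of Cad to Umps averaged 0.92 ± 0.42 in Max null (SD, n = 9) and -0.08 ± 0.60 in Max wild-type tumors (n = 7). The difference was 0.996 (exact permutation test, two-sided, p = 0.00157, adjusted over 4 ratios 0.00629), and 5 of 9 Max null tumors lay above every wild-type tumor. Without wild-type tumors 2, 4 and 7 the difference was 0.71. No ratio was computed with the trend on transcript length and GC removed. In the fit with that trend removed the differences were 0.89 for Cad and 0.29 for Umps, against 1.38 and 0.32 in the main fit. The ratio of Cad to Umps and the other 3 ratios below were chosen after values had been seen.

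Ctps and Ctps2 encode the paralogous CTP synthases. Ctps measured 85.3 CPM in the lowest, 101.8 in the median and 171 in the highest Max null tumor, against 84.6, 171 and 234 CPM in Max wild-type tumors. The lowest tumors of both groups had almost the same level, while wild-type tumors 1, 6 and 7 lay above every Max null tumor and wild-type tumor 5 was level with the highest. Its log2 difference of -0.50 ± 0.22 did not pass (edgeR adjusted p = 0.129). Ctps2 ran from 64.2 through 80.5 to 111 CPM in Max null and from 49.9 through 93.7 to 108 CPM in Max wild-type tumors. Its difference was 0.01 ± 0.17 (edgeR adjusted p = 0.981), with 2 SE either side spanning -0.33 to 0.34. The log2 ratio of Ctps to Ctps2 averaged 0.50 ± 0.30 in Max null and 0.99 ± 0.53 in Max wild-type tumors (SD, n = 9 and 7). The ratios did not pass after adjustment (exact permutation p = 0.0394, adjusted over 4 ratios 0.0788).

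**Figure D2:**
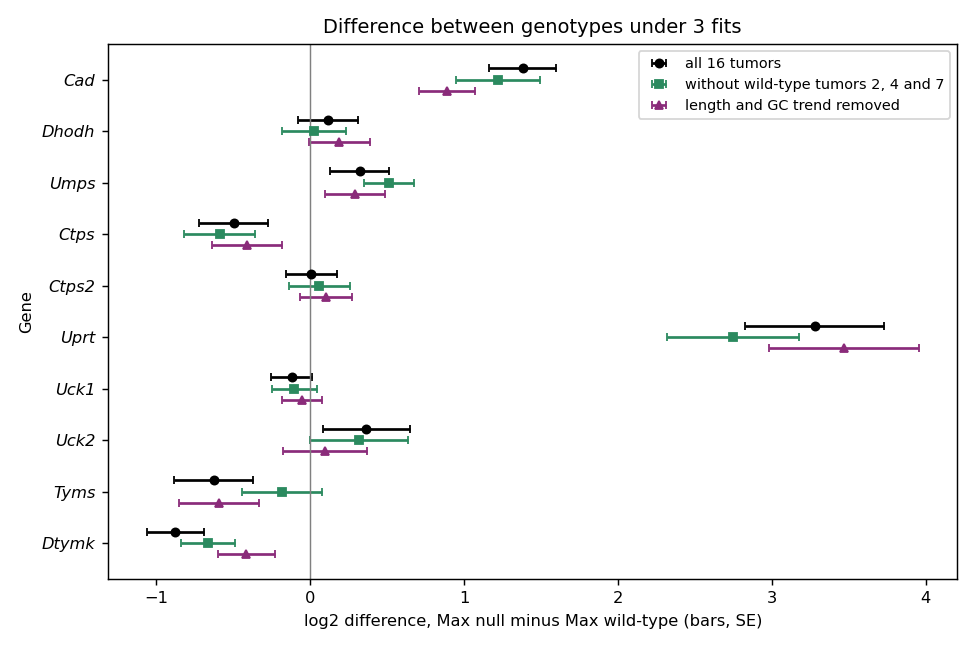
Log2 difference between Max null and Max wild-type tumors for each of the 10 genes, with SE bars, from the fit of all 16 tumors, the fit without wild-type tumors 2, 4 and 7 and the fit with the trend on transcript length and GC removed. Uprt lies above 2 and Cad above 0.8 in all 3, while Dtymk moves from -0.88 to -0.66 and -0.41.

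Uprt is related to the microbial enzymes that make UMP directly from uracil. Whether the mouse protein has this activity was not tested. The level of Uprt per length was the lowest of the 10 genes in both groups. It measured 3.94 CPM in the lowest, 6.15 in the median and 13.4 in the highest Max null tumor. In Max wild-type tumors it measured 0.214, 0.720 and 1.45 CPM. The groups did not overlap. The wild-type values rest on 2 to 19 reads per tumor and 64 in all, against 903 over the Max null tumors. The log2 difference of 3.28 ± 0.45 (edgeR adjusted p = 0.00145) was the largest of the 10 in size. Within each group the level varied widely, with an SD of 43.9% of the mean in Max null and 66.4% in Max wild-type tumors.

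The Uprt difference ranged from 3.12 to 3.49 when each tumor was left out and was called each time. Without wild-type tumors 2, 4 and 7, which held the lowest wild-type values, it was 2.75 ± 0.43 (edgeR adjusted p = 0.0161), and with the length and GC trend removed it was 3.47 ± 0.49 (edgeR adjusted p = 0.00133). With the share of such reads as a covariate, as for Cad, it was 2.36 ± 0.55 and did not pass (edgeR adjusted p = 0.127). Zdhhc15, a neighbour of Uprt on chromosome X read on the opposite strand, differed by 0.25 ± 0.23 and did not pass (edgeR adjusted p = 0.482).

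Uck1 and Uck2 encode the kinases that return uridine and cytidine to UMP and CMP. Uck1 ran from 61.7 through 73.5 to 108 CPM in Max null tumors and from 71.5 through 83.0 to 102 CPM in Max wild-type tumors. Of the 9 Max null tumors 3 lay below every wild-type tumor and 1 above them all, and the difference was -0.12 ± 0.13 (edgeR adjusted p = 0.560), with 2 SE either side spanning -0.38 to 0.15. An annotated copy, Gm4482, matches 37.0% of its transcript at 95% identity or more, so its level is uncertain. Uck2 ran from 20.4 through 32.9 to 62.4 CPM in Max null tumors and from 16.7 through 21.4 to 49.5 CPM in Max wild-type tumors. Null tumor 4 and wild-type tumors 1 and 7 were the high tumors of their groups. Its difference of 0.37 ± 0.28 did not pass (edgeR adjusted p = 0.388). The log2 ratio of Uck2 to Uck1 averaged -1.18 ± 0.60 in Max null and -1.74 ± 0.70 in Max wild-type tumors (± SD), a gap short of the threshold (exact permutation p = 0.110, or 0.147 over 4 ratios).

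Both thymidylate genes had lower means in Max null tumors. Dtymk, the kinase that carries dTMP towards dTTP, measured 63.9 CPM in the lowest, 72.5 in the median and 119.7 in the highest Max null tumor. Max wild-type tumors gave 97.6, 147 and 246 CPM. Of the 9 Max null tumors 8 lay below every wild-type tumor, the exception being null tumor 5. The log2 difference was -0.88 ± 0.19 (edgeR adjusted p = 0.00816), a fitted level 1.84-fold lower, and it was called in each of the 16 fits that left out a tumor (-0.97 to -0.71). Its transcript, at 1055 bases, is the shortest of the 10, and with the length and GC trend removed the difference was -0.41 ± 0.18 and did not pass (edgeR adjusted p = 0.151). Leaving out wild-type tumors 2, 4 and 7 gave -0.66 ± 0.18, which also missed the threshold (edgeR adjusted p = 0.0685).

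Tyms, thymidylate synthase and the target of fluorouracil, measured 48.8 CPM in the lowest, 75.0 in the median and 146 in the highest Max null tumor. In Max wild-type tumors it measured 80.7, 103 and 226 CPM. Of the 9 Max null tumors 7 lay below every wild-type tumor, null tumors 5 and 9 being the exceptions. The difference of -0.63 ± 0.26 did not pass (edgeR adjusted p = 0.0989). It passed without null tumor 5 (-0.79 ± 0.23, edgeR adjusted p = 0.0286) and with limma-voom (-0.62, adjusted p = 0.0487). Without wild-type tumors 2, 4 and 7 it was -0.18 ± 0.26 (edgeR adjusted p = 0.753), a value over 1.5 times closer to 0, and without wild-type tumor 7 alone it was -0.41 ± 0.23 (edgeR adjusted p = 0.255). The log2 ratio of Tyms to Dtymk averaged -0.09 ± 0.40 in Max null and -0.31 ± 0.40 in Max wild-type tumors (± SD), with an exact permutation p of 0.311 both before and after adjustment over 4 ratios.

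**Figure D3:**
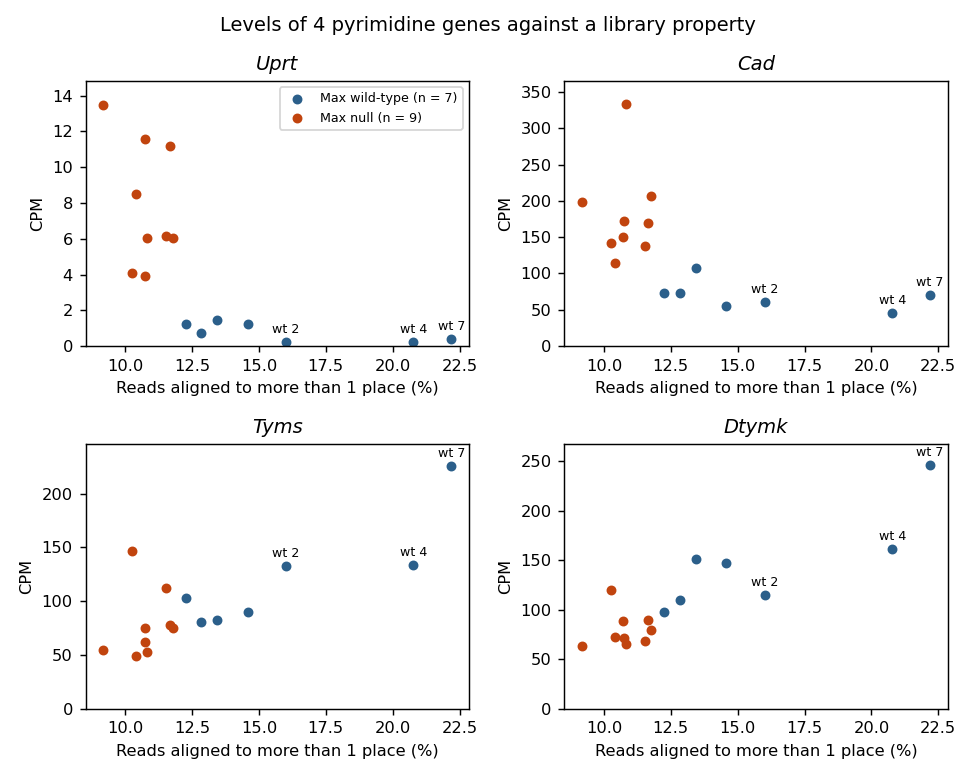
CPM of Uprt, Cad, Tyms and Dtymk in each tumor against the percent of reads aligned to more than 1 place, with wild-type (wt) tumors 2, 4 and 7 marked. The groups do not overlap on the horizontal axis, and wild-type tumor 7, at 22.2%, has the highest Tyms and Dtymk levels, 226 and 246 CPM.

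The 10 genes were also set against the share of multiply aligned reads within each group, and no relation with it passed after adjustment. Values are given for Tyms, Dtymk, Uprt and Cad. Over the 7 wild-type tumors Tyms gave Pearson's r = 0.88 with that share (exact permutation p = 0.00714, adjusted 0.0952) and Spearman's rho = 0.79 (p = 0.0480, adjusted 0.471). Without the 2 tumors farthest from the median share r was 0.64. Dtymk gave r = 0.82 (exact permutation p = 0.0143, adjusted 0.114) and rho = 0.86 (p = 0.0238, adjusted 0.471), and r was 0.33 without 2 tumors, so this value rests on them. In the 9 Max null tumors r was 0.27 for Tyms and 0.12 for Dtymk (exact permutation p = 0.486 and 0.737, adjusted 0.844 and 0.894). Uprt gave r = -0.73 over the 7 wild-type tumors (exact permutation p = 0.0764, adjusted 0.340) and rho = -0.71 (p = 0.0881, adjusted 0.503). Its r was -0.69 without 2 tumors. Cad gave r = -0.48 there (exact permutation p = 0.287, adjusted 0.844) and rho = -0.64 (p = 0.139, adjusted 0.617). Among Max null tumors r was -0.23 for Uprt and 0.04 for Cad. These values belong to a family of 40 relations of the 10 genes with the share and with proliferation, chosen after values had been seen. Whether the share had a part in the difference between genotypes was not tested.

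Levels were set against proliferation within each genotype in the same way, and Ctps in Max null tumors passed by Pearson's r but not by Spearman's rho. The mean log2 CPM of the 17 proliferation genes was 7.40 ± 0.48 in Max null and 7.67 ± 0.38 in Max wild-type tumors (SD, n = 9 and 7), and null tumors 5 and 9 were the highest of their group. Over the 9 Max null tumors Ctps gave r = 0.90 with that mean (exact permutation p = 0.00115, adjusted over 40 relations 0.0461), with rho = 0.77 (p = 0.0214, adjusted 0.471), and r was 0.72 without the 2 tumors farthest from the median. Tyms gave r = 0.86 (exact permutation p = 0.00280, adjusted 0.0559) and rho = 0.67 (p = 0.0589, adjusted 0.471), and r was 0.53 without 2 tumors. Over the 7 wild-type tumors r was 0.43 for Ctps and 0.41 for Tyms (exact permutation p = 0.354 and 0.346, adjusted 0.844 for both). Whether these relations differ between the groups was not tested.

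Among the 10 genes themselves no pair passed. All 45 pairs were correlated within each group, 90 relations in all, and 0 passed after adjustment by Pearson's r or Spearman's rho, with 2 pairs in Max null and 1 in Max wild-type tumors at an unadjusted exact permutation p of Pearson's r below 0.05. The median r was 0.18 in Max null and 0.28 in Max wild-type tumors. The closest pair was Ctps and Tyms in Max null tumors (r = 0.84, exact permutation p = 0.00386, adjusted 0.347), with rho = 0.67 (p = 0.0589, adjusted 0.814), and r was 0.52 without 2 tumors.

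**Figure D4:**
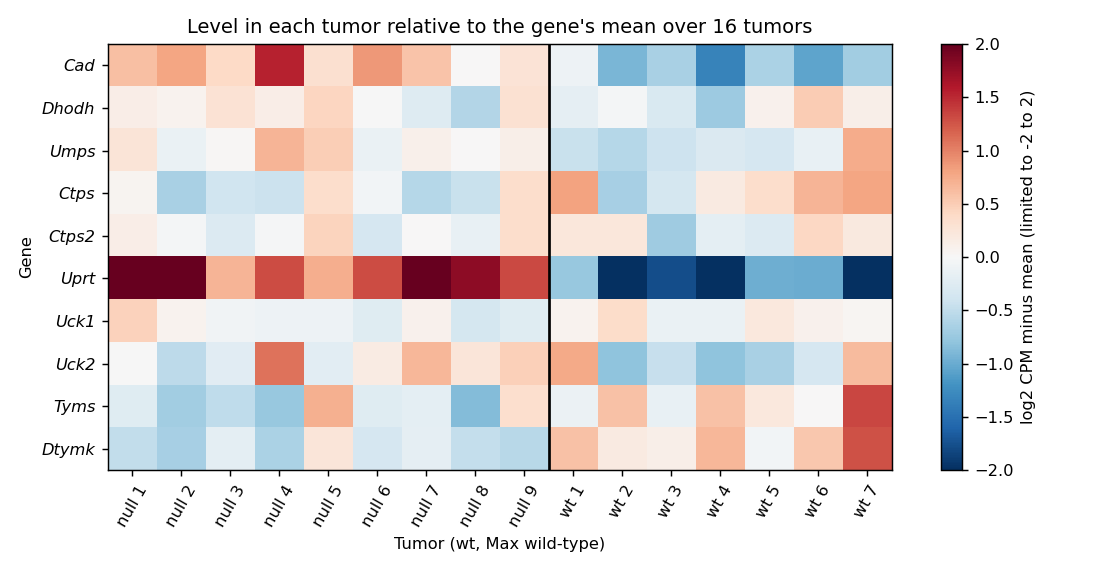
Level of each of the 10 genes in each tumor, as log2 CPM minus the gene's mean over all 16 tumors, with colour limited to -2 to 2; the black line separates 9 Max null from 7 Max wild-type (wt) tumors. Uprt and Cad split at the line, and wild-type tumor 7 is the highest tumor for Umps, Tyms and Dtymk.

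Levels of different genes were compared per kilobase of the longest coding transcript. In Max wild-type tumors Dtymk was highest at 139 ± 47.1 CPM per kb (SD, n = 7), followed by Ctps at 62.9 ± 22.1, Uck1 at 41.6 ± 5.33, Tyms at 38.3 ± 16.2, Ctps2 at 24.8 ± 6.13, Umps at 21.4 ± 8.14, Cad at 9.73 ± 2.74, Dhodh at 9.03 ± 2.38, Uck2 at 5.79 ± 2.94 and Uprt at 0.341 ± 0.227 CPM per kb. Neighbours in this order differed by less than the sum of their SDs except Dtymk above Ctps, Umps above Cad and Uck2 above Uprt. In Max null tumors (n = 9) Cad stood at 25.3 ± 9.00 CPM per kb, level with Umps at 26.7 ± 5.48, Ctps2 at 24.9 ± 4.66 and Tyms at 24.8 ± 10.1. Dtymk was again highest at 75.9 ± 16.7 CPM per kb and Uprt again lowest at 3.42 ± 1.501.

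Other genes of pyrimidine metabolism were read from a fixed list of 40, of which 36 were tested. Of these, 3 rose, 3 fell and 30 did not pass, which is 16.7% called against 16% of all genes. The list median was -0.19. By role, 1 of 4 deoxynucleoside salvage genes, 1 of 8 genes of deoxynucleotide supply and 1 of 4 of phosphoribosyl pyrophosphate (PRPP) supply rose. Of the fallen genes 1 was among 7 genes of nucleotide phosphorylation and 1 among 5 of nucleoside salvage and transport. Of 8 breakdown genes 0 were called, with 0 at an unadjusted p below 0.05 in edgeR.

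Dctd, the deaminase that turns dCMP into dUMP, the substrate of thymidylate synthase, rose most in this list. It measured 10.4 CPM in the lowest, 16.4 in the median and 19.2 in the highest Max null tumor. Among Max wild-type tumors it measured 0.234, 1.93 and 9.49 CPM. The groups did not overlap, although wild-type tumor 1 came close. The log2 difference was 2.41 ± 0.52 (edgeR adjusted p = 0.00837), and it was called in each of the 16 fits without a tumor (2.21 to 3.11). Without wild-type tumors 2, 4 and 7 it was 2.04 and did not pass (edgeR adjusted p = 0.0682), nor did it with the share of multiply aligned reads as a covariate (2.17 ± 0.76, edgeR adjusted p = 0.232).

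Of the other called genes, 4 are described here. Prps2, which makes PRPP, the sugar donor used by UMPS, rose by 0.72 ± 0.20 (147 ± 39.3 against 89.1 ± 26.2 CPM, SD, n = 9 and 7, edgeR adjusted p = 0.0260). Samhd1, which breaks down deoxynucleoside triphosphates, rose by 0.53 ± 0.16 (edgeR adjusted p = 0.0321), and 8 of 9 Max null tumors lay above every wild-type tumor. Cmpk1, the kinase of UMP and CMP, fell by 0.44 ± 0.14 (edgeR adjusted p = 0.0412). Cda, cytidine deaminase, fell by 2.23 ± 0.56 from a low level (0.945 ± 0.512 against 4.54 ± 4.77 CPM, edgeR adjusted p = 0.0158), with wild-type tumors 7 and 4 the highest at 14.2 and 7.17 CPM. Samhd1 was not called without null tumor 1, 2 or 6 or wild-type tumor 2, 4 or 7, and Prps2 was not called without wild-type tumor 4 or 7. Cmpk1 was not called in 12 of the 16 fits that left out a tumor (each null tumor but 5 and 9, and wild-type tumors 2, 4, 5, 6 and 7). With the length and GC trend removed Cmpk1 was -0.25 and Samhd1 0.43, and neither passed (edgeR adjusted p = 0.148 and 0.0806). Cmpk1 was also not called without the filter on low counts (-0.40, edgeR adjusted p = 0.0844), nor Prps2 with limma-voom (0.60, adjusted p = 0.0528). None of these 4 passed with the covariate for multiply aligned reads (Prps2 0.42, Samhd1 0.41, Cmpk1 -0.34 and Cda 0.016, edgeR adjusted p = 0.539, 0.430, 0.460 and 0.995). None of them passed without wild-type tumors 2, 4 and 7, where Prps2 was 0.60, Samhd1 0.46, Cmpk1 -0.41 and Cda -0.87. The most abundant genes that did not pass were Nme2, a nucleoside diphosphate kinase (0.61 ± 0.24, edgeR adjusted p = 0.0817), and Rrm1, the large subunit of ribonucleotide reductase (-0.18 ± 0.15, edgeR adjusted p = 0.425). Nme2 was the single gene of the list called without those 3 tumors (1.01, edgeR adjusted p = 0.0241).

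**Figure D5:**
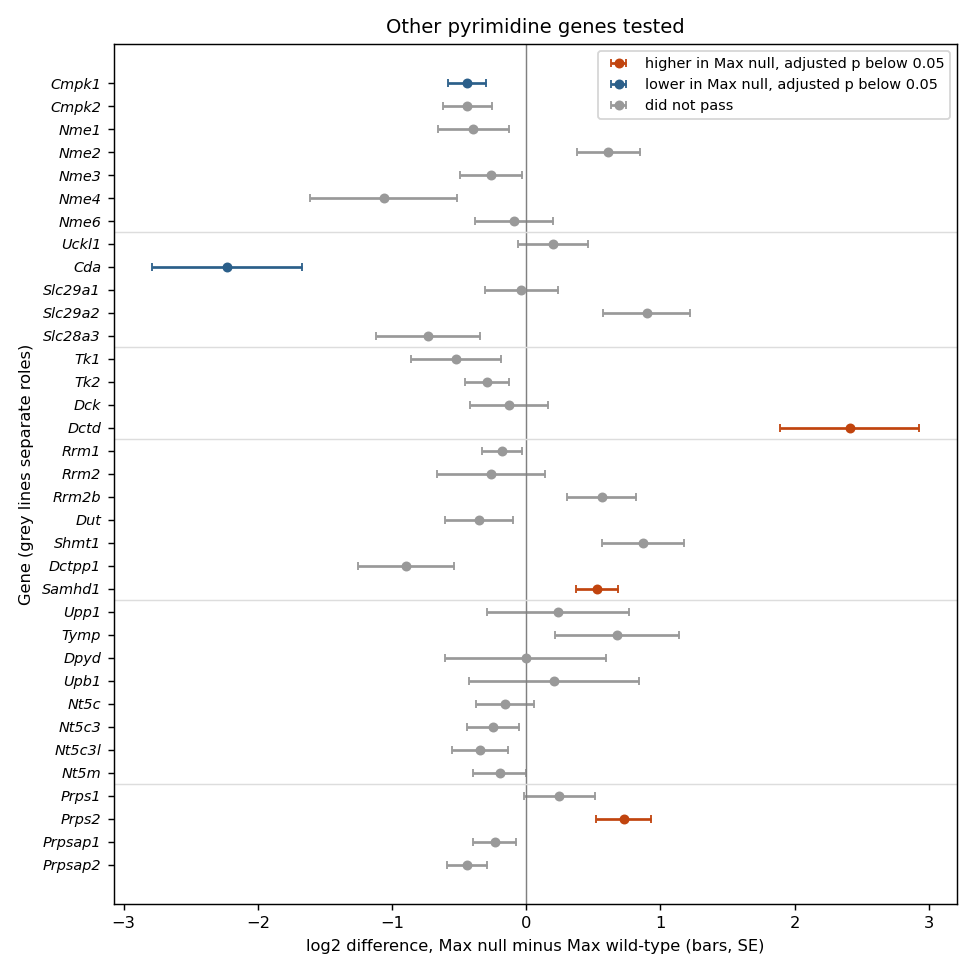
Log2 difference between Max null and Max wild-type tumors, with SE bars, for other pyrimidine genes tested, in blocks from nucleotide phosphorylation at the top through salvage and transport, deoxynucleoside salvage, deoxynucleotide supply and breakdown to PRPP supply. Dctd (2.41) and Cda (-2.23) lie farthest from 0 among those drawn, and 30 did not pass.

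Markers of other cell types were read beside these values. Of 6 macrophage genes 3 fell and 0 rose, and their summed level was 95.9 to 221 CPM in Max null against 154 to 423 CPM in Max wild-type tumors. Of 5 alveolar type 2 genes 1 rose, with sums of 574 to 2546 against 129 to 1836 CPM. Over all genes tested 8.64% were called lower and 7.40% higher. Club, lymphocyte, endothelial and fibroblast lists had 0 of 3, 3, 4 and 5 tested genes called, with 1 gene in each at an unadjusted p below 0.05 in edgeR. No marker of these lists was below 1 CPM in every tumor. Their part in the differences above was not tested.

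Of the 4 genes next to Cad and Dtymk 1 was called. Beside Cad on chromosome 5, 0610007C21Rik, which ends shortly before Cad on the same strand, fell by 0.71 ± 0.23 (edgeR adjusted p = 0.0436) and Slc30a3 did not pass (-0.54 ± 0.76, edgeR adjusted p = 0.659). Beside Dtymk on chromosome 1, Atg4b and Ing5 differed by -0.09 ± 0.12 and -0.07 ± 0.16 (edgeR adjusted p = 0.617 and 0.791). Gene order was taken from GENCODE M21.

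The genes whose level followed Uprt and Cad most closely within the groups were ranked by the mean of the 2 within-group Pearson correlations (9 and 7 tumors) over 12488 genes of at least 5 CPM. For Uprt these were Tanc1 (0.91), Xpnpep3 (0.89), Fry (0.88), Usp6nl (0.85) and Atf7 (0.84), of which Fry, Usp6nl and Atf7 rose in Max null tumors, by 0.95 ± 0.20, 0.72 ± 0.22 and 1.82 ± 0.36 (edgeR adjusted p = 0.00825, 0.0352 and 0.00548). For Cad they were C130039O16Rik (0.89), Supt6h (0.87), Nek9 (0.86), Mfsd4 (0.84) and Pitpnm1 (0.84), of which C130039O16Rik rose, by 0.85 ± 0.26 (edgeR adjusted p = 0.0327). Over all genes tested 7.40% were called higher. For Cad and all 5 of its named correlates, null tumor 4 and wild-type tumor 1 were the highest of their groups. Mfsd4, for example, measured 72.9 CPM in null tumor 4 and 12.2 CPM in the next, null tumor 6. The part of these high tumors in the ranking was not tested. The named correlates of Uprt have transcripts of 6058 to 10893 bases, against a median of 3130 over genes tested, and the part of length in the ranking was not tested. With so few tumors, the top of a ranking this long is a description only.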

How the data were processed

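RNA counts from 16 tumors were analysed. The deposited files hold raw counts, whole reads per gene symbol, made by the authors, each tumor in its own file. TopHat2 2.0.12, TopHat, HTSeq 0.6.1, bcl2fastq 1.8.4 and the build mm9 were used, per the submitters' processing notes, which state no role for them. Annotation and strand setting: not given in the sources used here. The HTSeq totals of reads in no single gene (29.2% to 45.6% of reads) stayed out of library sizes and tests. No pair of libraries agreed within sampling noise (smallest chi-square 32.8 per degree of freedom).

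Differences came from edgeR 4.0.16 (R 4.3.3), quasi-likelihood F test, TMM factors and filterByExpr, which kept 14825 genes. The SE is the log2 difference divided by the square root of F. The script was tested on simulated data with 200 genes changed, where it called 34.3% of 2-fold and 86.5% of 4-fold changes. A gene that did not pass may therefore still differ. In the tumors 2378 genes were called, so the shares found there may not be the same. Alternatives were DESeq2 1.42.0, RLE or upper-quartile scaling in edgeR, limma-voom with quality weights (limma 3.58.1), no filter, at least 5 CPM in at least 7 tumors, the tumor number as a block, leaving out tumors, the multiply aligned share as a covariate, and a spline of length and GC (GENCODE M21, 97.3% of symbols matched) as an offset. Log2 CPM used a prior count of 2.

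Named were all 10 members, the called genes of the 40 other pyrimidine genes and the 2 most abundant not called, neighbours of called members and the 5 closest correlates of Uprt and Cad. Some results under this rule are not reported here. Members and lists were chosen with earlier results of these data known. Counting error is small beside the spread between tumors except near 0 CPM. Multiply aligned reads were counted for no gene. No member shares over 0.145% of its exon bases with another counted gene in GENCODE M21. Stretches at least 95% identical to a member's longest coding transcript were found in 296 genes for Uprt, 44 for Tyms and 7 for Dtymk. The closest single gene covered 3.39%, 11.4% and 11.1% of these transcripts, and joint coverage was not computed.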

Additional observations from a re-analysis of the deposited data

Results flagged for a closer look

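Of 36 groups of tumors checked (10 members and 8 other pyrimidine genes in each genotype), 10 were flagged by Dixon's criterion at 95%. In these the gap from the highest tumor to the next was large against the range of its group. The criterion would flag about 1 in 20 groups by chance if groups were independent and their values normally distributed. It was applied to CPM, not to log values, and groups of different genes share the same tumors. The count of 10 can therefore not be compared with that rate. In Max wild-type tumors, tumor 7 was the flagged tumor for Umps (137 CPM, next 74.0), Tyms (226 CPM, next 134), Dtymk (246 CPM, next 161) and Nme2 (523 CPM, next 277). Wild-type tumor 7 also had the highest share of multiply aligned reads, 22.2%, and the part of that share in these values was not tested. It had the lowest TMM factor as well, 0.748, which raises all its CPM, and the part of this scaling in the flags was not tested. Wild-type tumor 1 was flagged for Dctd (9.49 CPM, next 3.61). In Max null tumors the flagged values were those of Cad in tumor 4 (333 CPM, next 207), Uck1 in tumor 1 (108 CPM, next 83.4), Dtymk in tumor 5 (119.7 CPM, next 89.8), Cmpk1 in tumor 9 (154 CPM, next 119.9) and Rrm1 in tumor 5 (324 CPM, next 246). Null tumor 5 had the highest mean of the proliferation genes in its group.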

How the results depend on the processing

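Cad and Uprt were called in all 16 fits that left out a tumor and in 10 of 11 other settings each, the exception being the covariate for multiply aligned reads, where 0 of the 10 members, 1 other pyrimidine gene and 10 genes in all were called. Dtymk was called in 7 of 11 settings. It did not pass with that covariate (-0.37, edgeR adjusted p = 0.472), and it was not called without wild-type tumors 2, 4 and 7, with the length and GC trend removed, or with the replicate block. The number of genes called was 2378 with all tumors, 3615 with DESeq2, 256 without wild-type tumors 2, 4 and 7, 1579 with the length and GC trend removed and 1471 to 3033 when 1 tumor was left out, the lowest counts being those without wild-type tumor 4 (1471) and tumor 7 (1555). The cause of these changes was not tested, other than that fits without tumors have fewer samples. When 1 tumor was left out, 3 to 4 members, 2 to 9 other pyrimidine genes (3 without wild-type tumor 2, 2 without wild-type tumor 4) and 0 to 3 proliferation genes were called (3 without null tumor 5, 2 without wild-type tumor 3). Without wild-type tumors 2, 4 and 7, 1 other pyrimidine gene was called. With the length and GC trend removed 1 proliferation gene was called. Signs changed for Ctps2, which lay near 0 (-0.023 with upper-quartile factors, -0.011 with limma-voom, -0.0044 with the stricter filter, -0.084 to 0.087 leaving out a tumor), for Tyms (0.065) and for Cda (0.016), both with the multiply aligned covariate. Cda had too few reads for the stricter filter. Few reads limit Uprt, with 2 to 19 in each wild-type tumor. Other scalings moved the median of all genes by under 0.1.

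The tumor numbers are not shown to pair the tumors, since correlations of the deviations of same-numbered tumors ran from -0.17 to 0.24 over 7 pairs and 1 of 7 correlated best with its own number. With the number as a replicate block, which leaves tumors 1 to 7 of each group, 278 genes, 2 members (Cad and Uprt) and 1 other pyrimidine gene were called, and Dtymk was -0.80 (edgeR adjusted p = 0.0796). Without the block, the same tumors gave 1450 genes and Ctps2 at -0.019, a fit added after the data had been seen.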
